A study of Mus musculus with 18 samples.

Results

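White adipose tissue of mice given prednisone once a week was compared with that of mice given the same dose every day, using 6 of the 18 RNA-seq libraries of the series. The weekly group was 3 male DBA/2J wild-type mice of about 20 weeks of age that received 1 mg/kg prednisone, diluted in PBS from a DMSO stock, into the peritoneum once weekly for 12 weeks. The daily group was 3 such mice that received the same dose once daily, and the vehicle group was 3 such mice given vehicle every day. All 9 mice had eaten a high-fat diet for 12 weeks before treatment and stayed on it, DBA/2J is an inbred strain, and the mice were sampled 24 hours after their final dose. The age of about 20 weeks is the labels' own. It is shorter than the 12 weeks of diet and 12 weeks of treatment together, so the time point it refers to is unclear. Quadriceps muscle of the same mice made up the other 9 libraries. The labels name no fat depot and give 3 daily adipose libraries, and the deposited table holds 3, although the series' design text lists fewer. All genes at 1 TPM or more in at least 3 of the 9 adipose libraries were included, which gave 14150 genes.

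Prednisone is a synthetic glucocorticoid that is converted in the body to prednisolone, and it acts through the glucocorticoid receptor, a transcription factor. In fat, glucocorticoids are known to act on adipocyte differentiation, on the balance of lipid storage and breakdown, and on the macrophages and stromal cells between the adipocytes. The 2 regimens differ in how long the tissue is free of drug between doses, while the last dose lay 24 hours back in both when tissue was taken.

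Levels are given in TPM, a unit of relative abundance, corrected for transcript length, whose total is equal in every library; it keeps no record of depth, so counting error cannot be stated. Between 13413 and 14076 genes reached 1 TPM in a library. Adipocyte transcripts were high throughout, with Adipoq, the gene of adiponectin, at 2877 to 3757 TPM and Fabp4, the fatty acid binding protein of adipocytes, at 21663 to 25113 TPM over the 9 libraries. Of 12 markers of the epididymis, which lies against the gonadal depot, none reached the filter, 7 were listed at 0 in all 9 libraries, and their sum was at most 0.389 TPM. Skeletal muscle transcripts differed between libraries that share a label. Ckm, the muscle creatine kinase, stood at 13.8, 176 and 130.4 TPM in weekly 1, 2 and 3, at 15.4, 109 and 16.1 TPM in daily 1, 2 and 3, and at 13.2 to 35.0 TPM in the vehicle libraries. The third library of each group often lay between the other two: over 8247 genes averaging 10 TPM or more it held the middle value for 54.8% in the weekly, 44.1% in the daily and 53.3% in the vehicle group, where equal shares would be 33.3%.

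After weekly prednisone a small set of genes of the stroma, the extracellular matrix and tissue-resident macrophages stood higher than after daily prednisone, and a pair of lipid enzyme genes stood lower. The genes with the firmest difference were Thbs1, which encodes the matrix protein thrombospondin 1, and Tppp3, which encodes a protein that binds tubulin. Fn1 (fibronectin), Lyve1 and Cd163 (receptors of resident macrophages) and Igfbp3 (a binding protein of insulin-like growth factors) were also higher. Elovl3, an enzyme that elongates fatty acids, and Gpat3, an enzyme of triglyceride synthesis, were lower. None of a panel of 26 adipocyte and glucocorticoid-response genes, among them Adipoq, Fkbp5 and Per1, differed past the threshold.

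Of the 14150 genes tested, 44 (0.311%) differed between the regimens at an adjusted p below 0.05 (limma on log2 of TPM plus 1, Benjamini-Hochberg over all genes). They were 42 genes higher after weekly prednisone (0.297%) and 2 lower (0.0141%), with a median absolute log2 fold change of 0.79, and 9 of them differed by 1 or more. At an unadjusted p below 0.05 there were 2024 higher (14.3%) and 218 lower (1.54%). The weekly and daily libraries did not overlap for any of the 44, and over all genes every weekly library lay above every daily library for 22.5% and below for 3.05%. The whole distribution was shifted: the median log2 fold change, weekly minus daily, was 0.12 over all genes and 74.3% of genes lay above 0. Scaling the libraries by trimmed means of M values moved that median to -0.02 and left 11 genes called, 8 higher and 3 lower, of which 10 were among the 44; quantile normalization left 19, 15 higher and 4 lower. The count also varied with single libraries left out. It was 17, 24 and 2 without weekly 1, 2 and 3, and 2, 33 and 2 without daily 1, 2 and 3. Without vehicle 1, 2 and 3 it was 47, 23 and 20. Without the third library of every group 0 genes were called by limma, with 859 at an unadjusted p below 0.05. Leaving out weekly 2, weekly 3 and daily 2, which held the most Ckm, left weekly 1 alone against daily 1 and 3. The log2 fold changes of the 42 that can be named were then 0.659 to 1.37 times as large. Those genes were called from all libraries, without overlap of weekly and daily, so folds in the same direction follow from that choice. The part of muscle transcripts in the result was not tested. With skeletal muscle transcripts as a covariate 1800 genes were called, and all 44 were among them. The part of the third libraries in the result was not tested. Because these are pieces of whole tissue, fewer cells of a type and less RNA per cell cannot be told apart.

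**Figure D1:**
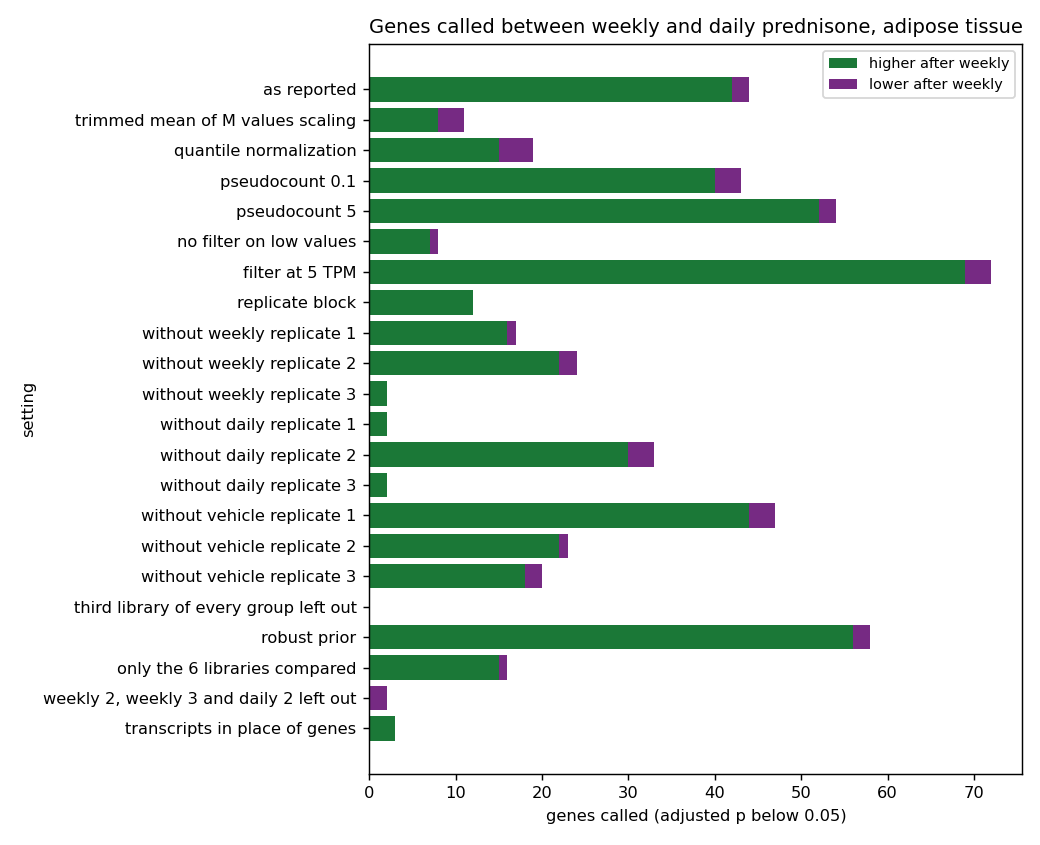
Number of genes called between weekly and daily prednisone in adipose tissue (horizontal axis, adjusted p below 0.05) as reported and under each other setting (vertical axis), with genes higher after weekly in green and lower in purple. The count was 44 as reported, 11 with trimmed-mean scaling, 2 without weekly 3 and 0 without the third library of every group. The 2 settings with the highest counts, a skeletal muscle covariate with 1800 and array weights with 3941, are left off the axis.

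The matrix genes are described first. Thbs1 is a secreted glycoprotein of the matrix that activates latent TGF-beta and restrains blood vessel growth. Thbs1 (chromosome 2, 118111876 to 118127133, GRCm38, plus strand) had 110.1, 98.7 and 100.4 TPM in the weekly libraries, 58.4, 51.8 and 58.2 TPM in the daily libraries and 33.9, 35.7 and 34.8 TPM in the vehicle libraries. The 3 groups did not overlap, and daily lay between weekly and vehicle. The log2 fold change, weekly minus daily, was 0.87 ± 0.07 (SE, n = 3 per group; adjusted p = 0.00378, limma). Thbs1 and Tppp3 were the only called genes, of the 42 that can be named, that stayed called with each of the 9 libraries left out in turn (highest adjusted p = 0.0384 by limma, without weekly 3), and both lost the call without the third library of every group (adjusted p = 0.306). Thbs1 was also called with its libraries rescaled by trimmed means (log2 fold change 0.71).

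Fn1, the fibronectin that cells bind through integrins (chromosome 1, 71585520 to 71653200, minus strand), had 331, 258 and 263 TPM in weekly, 163, 135 and 161 TPM in daily and 144, 124 and 132 TPM in vehicle libraries. Every weekly library lay above every other library, while daily and vehicle overlapped. The log2 fold change was 0.88 ± 0.11 (adjusted p = 0.018, limma). Its leading transcript held 35.8% to 55.4% of the gene's TPM in weekly and 50.2% to 68.9% in daily libraries, with a log2 fold change of 0.59. Thbs3, another thrombospondin (chromosome 3, 89215180 to 89226837), had 32.2, 24.3 and 34.9 TPM in weekly, 14.8, 13.3 and 14.4 TPM in daily and 19.2, 12.7 and 14.9 TPM in vehicle libraries, a log2 fold change of 1.04 ± 0.16 (adjusted p = 0.0375). Ctgf, a matricellular protein now also called Ccn2, averaged 13.1 ± 0.87 TPM in weekly and 7.32 ± 0.914 TPM in daily libraries (SD, n = 3 each), with a log2 fold change of 0.77 ± 0.11 (adjusted p = 0.027). Over the list of 37 collagen and matrix genes tested, 4 were called higher (Thbs1, Fn1, Ctgf and decorin, Dcn) and 0 lower, against 0.297% and 0.0141% of all genes. Of the 37, 36 lay above 0, against 74.3% of all genes, with a median log2 fold change of 0.23 against 0.12 over all genes. The fibrillar collagens Col1a1, Col1a2 and Col3a1 were not called, at 0.09, 0.23 and 0.27. Under trimmed-mean scaling the list's median was 0.10, against -0.02 over all genes.

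A further 4 called genes belong near this group by what they encode and were chosen after their values were seen. Itga11, an integrin chain that binds collagen, had 5.74, 4.84 and 5.78 TPM in weekly, 1.87, 1.56 and 1.84 TPM in daily and 2.18, 2.09 and 2.27 TPM in vehicle libraries, a log2 fold change of 1.23 ± 0.13 (adjusted p = 0.0138, limma). Cyr61, a matricellular protein now also called Ccn1, had 50.8, 44.2 and 49 TPM in weekly, 28.3, 31.1 and 26.6 TPM in daily and 28.7, 29.2 and 33.9 TPM in vehicle libraries, a log2 fold change of 0.72 ± 0.09 (adjusted p = 0.018). For both genes every weekly library lay above all others. Daily lay below vehicle for Itga11 and overlapped with it for Cyr61. Cd44, a receptor for hyaluronan, had a log2 fold change of 0.56 ± 0.08, and Ugdh, the enzyme that makes the sugar nucleotide used for hyaluronan and other glycosaminoglycans, one of 0.39 ± 0.06 (adjusted p = 0.0265 and 0.0375).

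**Figure D2:**
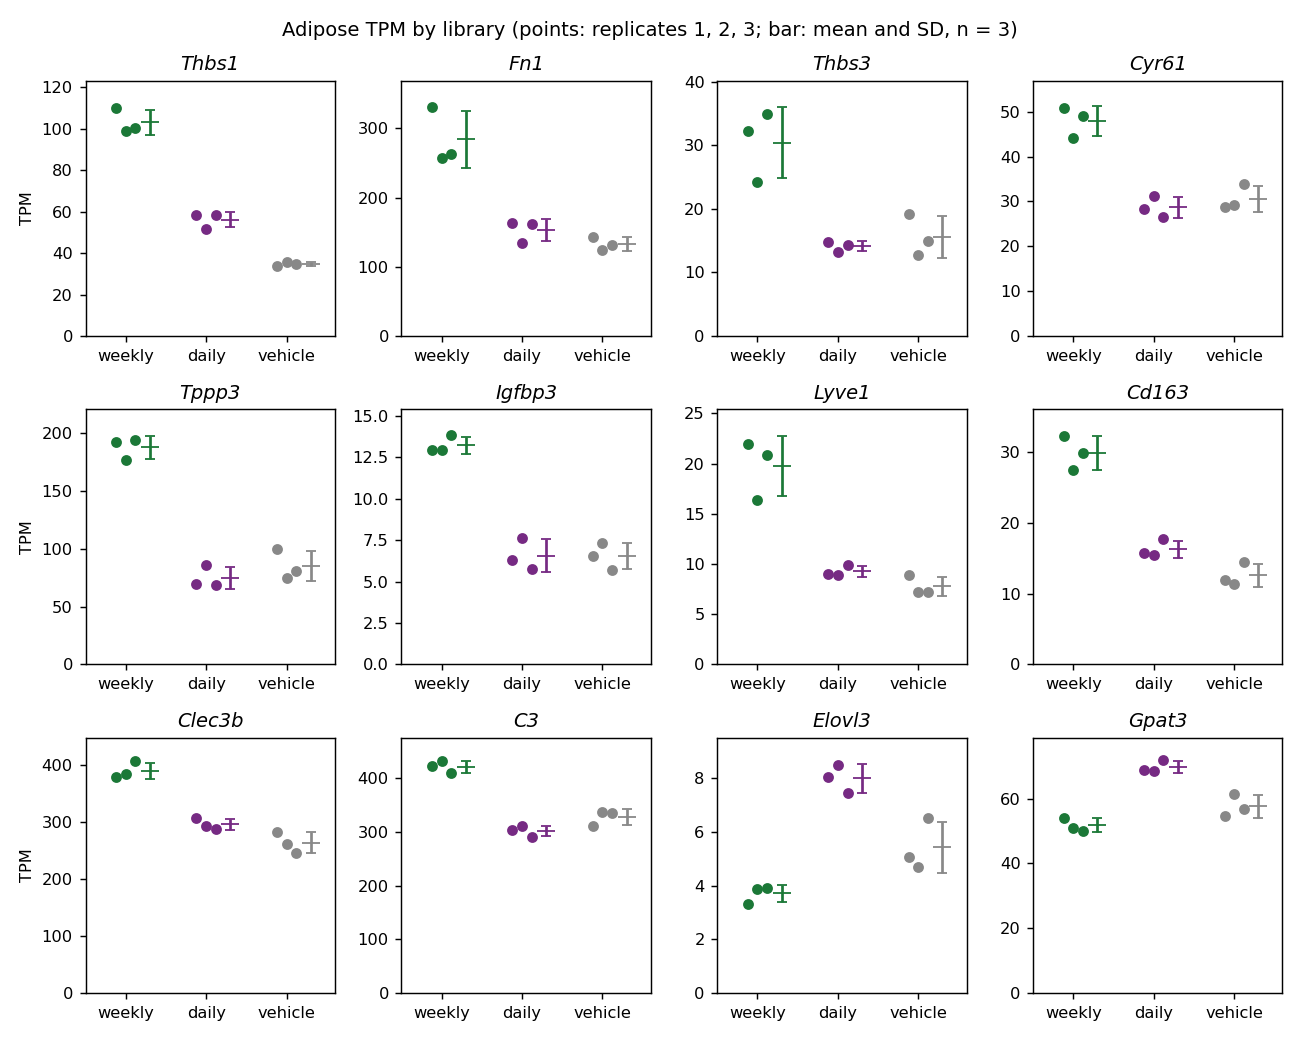
TPM (vertical axes, starting at 0) of 12 named genes in the adipose libraries of the weekly, daily and vehicle groups (horizontal axes). Points are replicates 1, 2 and 3 from left, and the bar beside them gives the mean and SD (n = 3). In the 10 genes called higher all weekly points lie above all daily points, and in Elovl3 and Gpat3 they lie below.

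Promoter sequence was searched for the genes called higher. RefSeq windows ran from 250 bases before to 50 after the start (GRCm38.p6). They were matched by symbol, or by a synonym where the symbol had no entry (Cyr61 is entered as Ccn1), for 26 of the 40 that can be named. These gave 29 windows in all, which were searched on both strands. The full glucocorticoid response element, AGAACA and TGTTCT with any 3 bases between them, was in 0 of the 29 windows and in 3 of 32851 windows of all genes (0.00913%). Its single arm AGAACA was in 2 windows (6.90%, against 19.0% of all), the TEAD site GGAATG in 4 (13.8%, against 14.7%) and the CArG box of serum response factor in 1 (3.45%, against 1.63%). Every full element holds the single arm by construction. These 4 windows are shown because each holds a match in a gene of the matrix and actin group or of the macrophage group; they run 5′ to 3′ on the gene's strand, and capitals mark the match on either strand, so CATTCC and TGTTCT are the motifs read on the opposite strand. They are Cyr61 (chr3:145649936-145650235, minus strand), Tagln2, a transgelin that binds actin (chr1:172499996-172500295, plus strand), Cd163 (chr6:124304401-124304700, plus strand) and the window with a match of the 2 of Filip1l, a filamin A interacting protein (chr16:57548992-57549291, plus strand).
Cyr61: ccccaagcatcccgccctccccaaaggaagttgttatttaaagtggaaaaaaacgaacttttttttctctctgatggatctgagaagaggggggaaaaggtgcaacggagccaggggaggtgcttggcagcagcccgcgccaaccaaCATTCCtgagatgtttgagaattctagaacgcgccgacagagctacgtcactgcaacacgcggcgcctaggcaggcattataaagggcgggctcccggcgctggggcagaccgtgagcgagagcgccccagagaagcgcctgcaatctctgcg
Tagln2: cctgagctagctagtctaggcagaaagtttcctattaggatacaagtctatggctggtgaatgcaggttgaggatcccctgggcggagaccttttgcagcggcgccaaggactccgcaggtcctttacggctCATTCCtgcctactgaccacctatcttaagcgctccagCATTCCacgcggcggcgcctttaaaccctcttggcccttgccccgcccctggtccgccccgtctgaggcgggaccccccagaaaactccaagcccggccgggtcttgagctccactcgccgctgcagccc
Cd163: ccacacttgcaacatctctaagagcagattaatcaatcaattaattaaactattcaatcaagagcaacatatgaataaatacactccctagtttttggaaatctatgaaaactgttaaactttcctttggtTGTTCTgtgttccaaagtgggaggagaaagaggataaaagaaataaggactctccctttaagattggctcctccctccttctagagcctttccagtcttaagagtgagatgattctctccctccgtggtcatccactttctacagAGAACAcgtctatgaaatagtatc
Filip1l: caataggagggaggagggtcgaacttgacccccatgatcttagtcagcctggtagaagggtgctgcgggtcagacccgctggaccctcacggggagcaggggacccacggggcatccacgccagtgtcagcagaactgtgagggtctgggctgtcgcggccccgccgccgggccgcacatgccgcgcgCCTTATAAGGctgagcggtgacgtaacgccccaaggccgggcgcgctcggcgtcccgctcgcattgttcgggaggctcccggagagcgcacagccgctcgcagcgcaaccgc
In these windows Cyr61 holds 1 TEAD site and Tagln2 holds 2, Cd163 holds 2 single arms and Filip1l 1 CArG box. A match of letters is a description and shows no binding. Tagln2 had 259.7, 259.9 and 259.8 TPM in weekly, 193, 197 and 185 TPM in daily and 191, 183 and 185 TPM in vehicle libraries (log2 fold change 0.44 ± 0.05, adjusted p = 0.0161, limma), and Filip1l had 31.8, 27.5 and 28.6 TPM in weekly, 14.3, 19.1 and 16.8 TPM in daily and 12.6, 16.9 and 15.2 TPM in vehicle libraries (0.78 ± 0.13, adjusted p = 0.0464).

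Tppp3, which binds tubulin, was the other gene that stayed called with each library left out. It (chromosome 8, 105467493 to 105471526, minus strand) had 193, 177 and 194 TPM in weekly, 69.6, 86 and 68.9 TPM in daily and 99.7, 74.8 and 81 TPM in vehicle libraries. The weekly libraries were the high ones, and daily overlapped with vehicle. The log2 fold change was 1.32 ± 0.12 (adjusted p = 0.00378, limma). Tppp, the related gene that gave the family its name (chromosome 13, 74009407 to 74035753), had 21.3, 23 and 28.1 TPM in weekly, 9.31, 12.6 and 10.5 TPM in daily and 9.7, 11.3 and 10.8 TPM in vehicle libraries. Its log2 fold change was 1.09 ± 0.13 (adjusted p = 0.018), and it was not called under trimmed-mean scaling (adjusted p = 0.0778) or in 3 of the 9 fits with a library left out.

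Among markers of resident macrophages, a pair of receptors was higher after weekly prednisone. Lyve1, a hyaluronan receptor also carried by lymphatic vessels (chromosome 7, 110850607 to 110863239), had 22, 16.4 and 20.9 TPM in weekly, 9.03, 8.89 and 9.86 TPM in daily and 8.9, 7.26 and 7.22 TPM in vehicle libraries. Cd163, the scavenger receptor that takes up haemoglobin bound to haptoglobin (chromosome 6, 124304656 to 124330527), had 32.3, 27.5 and 29.9 TPM in weekly, 15.7, 15.5 and 17.7 TPM in daily and 12, 11.4 and 14.5 TPM in vehicle libraries. All weekly libraries lay above all others for both genes. The log2 fold changes were 1.01 ± 0.13 for Lyve1 and 0.84 ± 0.11 for Cd163 (adjusted p = 0.018 for both, limma). They were the 2 called of 14 resident macrophage markers tested, against 0.297% of all genes called higher. The median of the 14 was 0.27, and Mrc1, the mannose receptor, lay at 0.01 without a call. Of 21 general macrophage markers and 18 markers of lipid-associated macrophages 0 were called by limma, with medians of 0.06 and -0.02. At an unadjusted p below 0.05, 1 general marker was higher and 2 lipid-associated markers were lower. The shares over all genes were 14.3% higher and 1.54% lower. Rnase2a, of the eosinophil-associated ribonucleases, had 65.6, 132 and 106 TPM in weekly, 24.9, 35.2 and 25.5 TPM in daily and 16.6, 27.7 and 27.2 TPM in vehicle libraries. Its log2 fold change was 1.75 ± 0.26 (adjusted p = 0.0349), and since this family has near-identical copies its reads may be shared among them.

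Progenitor markers lay higher after weekly prednisone in all 17 genes tested, with 2 called. Of all genes 74.3% lay above 0 and 0.297% were called higher. Clec3b, the gene of tetranectin, had 378, 384 and 406 TPM in weekly, 307, 293 and 287 TPM in daily and 282, 262 and 245 TPM in vehicle libraries, a log2 fold change of 0.40 ± 0.06 (adjusted p = 0.0422, limma). Cd34, a surface sialomucin of progenitor and endothelial cells, had 129, 111 and 119 TPM in weekly, 89.3, 81 and 90.0 TPM in daily and 72.1, 79.9 and 78.3 TPM in vehicle libraries, a log2 fold change of 0.46 ± 0.08 (adjusted p = 0.0473). For both genes the groups of libraries did not overlap. The list's median was 0.41, or 0.26 under trimmed-mean scaling. Its summed level was 1662 to 1785 TPM in weekly, 1326 to 1418 TPM in daily and 1104 to 1284 TPM in vehicle libraries. Pdgfra, a receptor of fibroblasts and adipocyte precursors, was not called (log2 fold change 0.41). Clec3b and Cd34 were not called under trimmed-mean scaling (adjusted p = 0.329 and 0.0903).

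Markers of mesothelium, the cell layer that covers visceral fat, showed the highest list median apart from skeletal muscle. Of 14 tested 0 were called by limma and 10 had an unadjusted p below 0.05, all of them higher after weekly, against 14.3% of all genes. The median log2 fold change was 0.67, or 0.54 under trimmed-mean scaling. The summed level of the list was 138, 225 and 199 TPM in weekly, 110, 99.0 and 106 TPM in daily, and 87.7, 131 and 123 TPM in vehicle libraries. Krt19, a keratin of this layer, had 18.6, 27.2 and 23.5 TPM in weekly, 11.7, 9.86 and 13.7 TPM in daily and 11.9, 14.6 and 14.8 TPM in vehicle libraries (log2 fold change 0.91 ± 0.16, adjusted p = 0.0536). Weekly 2 and 3, with the higher mesothelial sums of their group, were also the weekly libraries with the most Ckm, while daily 2, the daily library with the most Ckm, had the lowest mesothelial sum of its group. The part of the covering layer in the difference was not tested.

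Vessel markers lay higher in the same direction without calls. Of 15 endothelial genes tested 0 were called by limma, 12 were higher at an unadjusted p below 0.05, and all 15 lay above 0. The shares over all genes were 14.3% and 74.3%. The endothelial median was 0.37 (0.22 under trimmed-mean scaling). Flt1, a receptor for vascular endothelial growth factor, had 21.1, 16 and 18 TPM in weekly, 12.8, 11.1 and 12.8 TPM in daily and 10.6, 11.5 and 11.6 TPM in vehicle libraries (log2 fold change 0.54 ± 0.11, adjusted p = 0.0954). Of 11 genes of smooth muscle and pericytes 0 were called, 4 had an unadjusted p below 0.05, and the median was 0.41. Acta2, the smooth muscle actin, had 217, 223 and 217 TPM in weekly, 148, 155 and 149 TPM in daily and 127, 179 and 169 TPM in vehicle libraries (log2 fold change 0.54 ± 0.11, adjusted p = 0.093). Weekly and daily libraries did not overlap for either gene. Tmem100, a membrane protein of endothelial cells (chromosome 11, 90030348 to 90036508), was called, with 25.1, 18.4 and 20.1 TPM in weekly, 9.51, 11.2 and 10.4 TPM in daily and 7.69, 7.05 and 6.88 TPM in vehicle libraries, a log2 fold change of 0.95 ± 0.12 (adjusted p = 0.018).

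**Figure D3:**
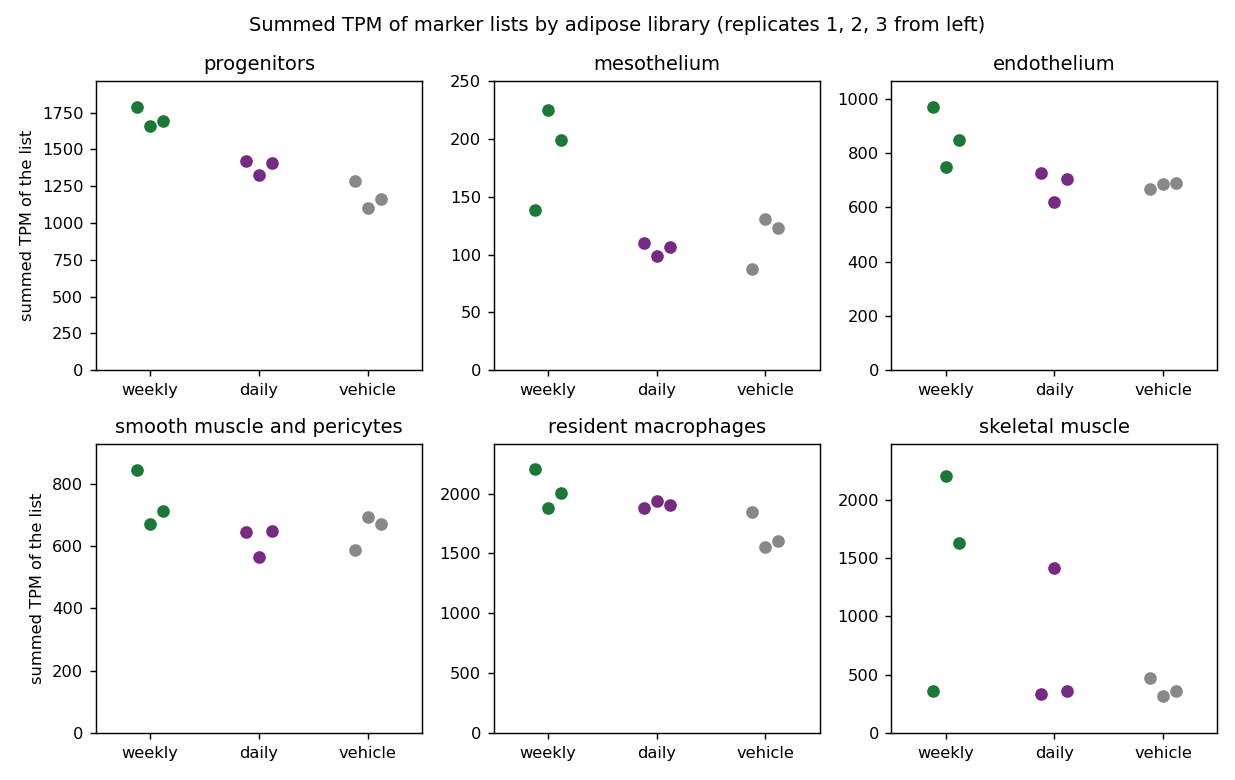
Summed TPM (vertical axes, starting at 0) of 6 marker lists in each adipose library, with weekly, daily and vehicle groups on the horizontal axes and replicates 1, 2 and 3 from left. Weekly libraries lie above daily ones for progenitors, mesothelium, endothelium and smooth muscle and pericytes. Skeletal muscle sums are high in weekly 2, weekly 3 and daily 2 (1413 to 2204 TPM) and at 320 to 472 TPM in the other libraries.

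Several called genes encode secreted signals and membrane proteins. Igfbp3, which carries insulin-like growth factors in blood and tissue (chromosome 11, 7206086 to 7213923), had 12.9, 13 and 13.8 TPM in weekly, 6.28, 7.65 and 5.74 TPM in daily and 6.56, 7.35 and 5.73 TPM in vehicle libraries. Weekly stood apart and daily overlapped with vehicle, and the log2 fold change was 0.92 ± 0.12 (adjusted p = 0.0223, limma). It was the called gene among 25 of insulin and growth factor signalling, against 0.297% of all genes called higher. The list's median was 0.27, against 0.12 over all genes. Fgf18, a fibroblast growth factor, averaged 7.09 ± 1.01 TPM in weekly and 3.27 ± 0.258 TPM in daily libraries, a log2 fold change of 0.92 ± 0.14 (SE; adjusted p = 0.0367). Mrap2, an accessory protein of melanocortin receptors, averaged 17.1 ± 2.91 TPM in weekly and 8.57 ± 1.06 TPM in daily libraries, a log2 fold change of 0.91 ± 0.13 (adjusted p = 0.027). Atp1b1 is the beta chain of the sodium pump, Smpd3 a neutral sphingomyelinase and Ano1 a chloride channel opened by calcium. Their log2 fold changes were 0.91 ± 0.14, 0.86 ± 0.14 and 1.07 ± 0.17 (adjusted p = 0.0367, 0.0375 and 0.0377), and the weekly and daily libraries did not overlap for any of them. For Ano1 the leading transcript held 49.4% to 55.5% of the gene's TPM in weekly and 67.6% to 81.2% in daily libraries, so its gene sum and its main transcript did not move alike.

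A pair of complement genes was higher after weekly prednisone. C3, the central complement protein and a product of adipocytes (chromosome 17, 57203970 to 57228136), had 422, 432 and 409.9 TPM in weekly, 304, 310.4 and 291 TPM in daily and 311, 337 and 335 TPM in vehicle libraries. Serping1, the inhibitor of the first complement proteases, had 430.3, 399 and 414 TPM in weekly, 338, 319 and 332 TPM in daily and 343, 338 and 340.0 TPM in vehicle libraries. Weekly libraries lay above all others for both genes. Daily and vehicle libraries came close to touching, at 310.4 and 310.7 TPM for C3 and at 337.67 and 337.72 TPM for Serping1. Daily minus vehicle was -0.12 ± 0.06 for C3 and -0.05 ± 0.05 for Serping1, without a call. The log2 fold changes, weekly minus daily, were 0.48 ± 0.06 and 0.33 ± 0.05 (adjusted p = 0.0161 and 0.0375, limma). Under trimmed-mean scaling neither was called (adjusted p = 0.203 and 0.3). They were the 2 called of 18 complement genes tested, against 0.297% of all genes called higher. The list's median was 0.11, against 0.12 over all genes. At an unadjusted p below 0.05, 7 of the 18 were higher and 1 lower, against 14.3% and 1.54% of all genes. Cfd, the factor D that adipocytes secrete as adipsin, was not called (0.13 ± 0.13).

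The 2 genes called lower after weekly prednisone both act on fatty acids. Elovl3, which lengthens saturated fatty acids and is known from cold-exposed brown fat (chromosome 19, 46131897 to 46135694), had 3.33, 3.87 and 3.92 TPM in weekly, 8.05, 8.51 and 7.44 TPM in daily and 5.07, 4.7 and 6.51 TPM in vehicle libraries. Daily was high, weekly low and vehicle between them, with no overlap. The log2 fold change was -0.94 ± 0.13 (adjusted p = 0.0265, limma), while neither regimen was called against vehicle (-0.44 ± 0.13 for weekly and 0.49 ± 0.13 for daily, minus vehicle). Gpat3, which adds the first fatty acid in triglyceride synthesis (chromosome 5, 100845713 to 100899102), had 54.2, 51.1 and 50.1 TPM in weekly, 68.8, 68.5 and 71.8 TPM in daily and 54.5, 61.5 and 56.9 TPM in vehicle libraries. Here too daily was highest and weekly lowest, with vehicle between them and no overlap. Its log2 fold change was -0.42 ± 0.07 (adjusted p = 0.0377), or -0.57 under trimmed-mean scaling (adjusted p = 0.024), and the call held in 1 of the 9 fits with a library left out. Of its 2 leading transcripts, 1 lay at -0.63 and the other at -0.05, neither called. Ucp1, the uncoupling protein of thermogenic fat, was not called, at 44.5, 45.6 and 45 TPM in weekly, 45.7, 59.6 and 43 TPM in daily and 113, 57 and 70.0 TPM in vehicle libraries. Elovl3 was the called gene of 14 thermogenic genes tested (median -0.12) and Gpat3 that of 16 of triglyceride synthesis (median 0.00). Of all genes 0.0141% were called lower, and the median over all genes was 0.12.

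Genes of mitochondrial energy metabolism lay on the low side, without a call. Of 59 nuclear genes of oxidative phosphorylation 0 were called by limma, 8 had an unadjusted p below 0.05 (all lower), and the median log2 fold change was -0.08, or -0.23 under trimmed-mean scaling. Of 22 genes of fatty acid oxidation 0 were called and 3 had an unadjusted p below 0.05, with a median of -0.09. All 13 protein-coding genes of the mitochondrial genome lay below 0 (0 called, 4 at an unadjusted p below 0.05, median -0.13). Lower at that threshold were 1.54% of all genes, and 74.3% of all genes lay above 0. All transcripts of the mitochondrial genome together took 14.5% to 14.8% of the TPM in weekly, 15.3% to 16.9% in daily and 12.9% to 13.5% in vehicle libraries, so both regimens lay above vehicle and daily above weekly. Ech1, an enzyme of fatty acid oxidation, had 587, 629 and 628 TPM in weekly, 697, 756 and 682 TPM in daily and 789.6, 746 and 732 TPM in vehicle libraries (log2 fold change -0.21 ± 0.06, adjusted p = 0.199). Of 38 ribosomal protein genes 0 were called and the median was -0.08.

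**Figure D4:**
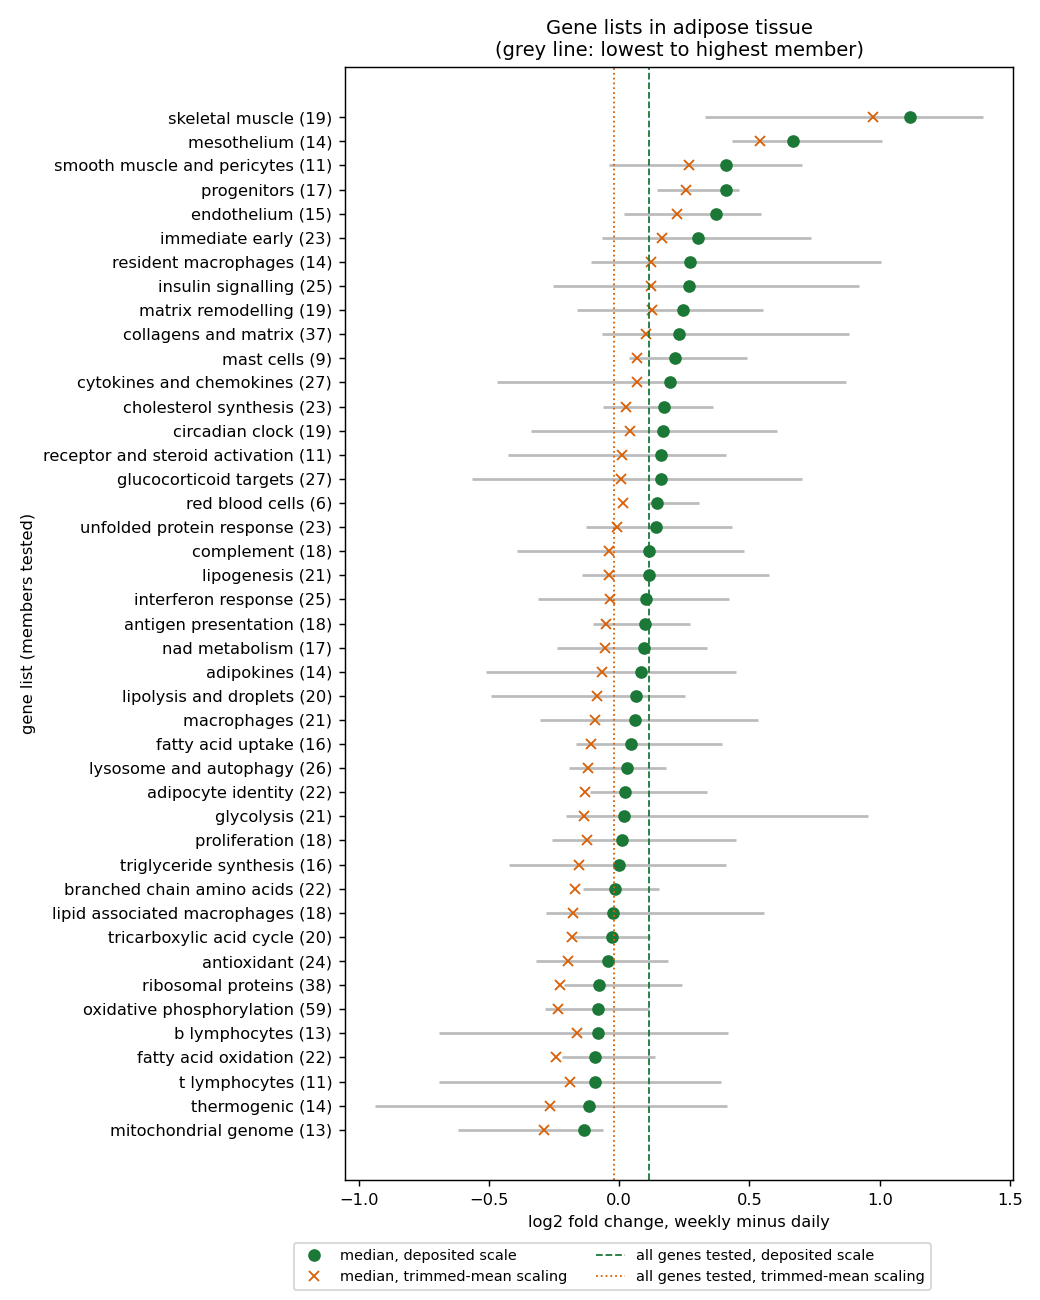
Median log2 fold change in adipose tissue, weekly minus daily (horizontal axis), of 43 gene lists (vertical axis, with the number of members tested) on the deposited scale (circles) and after trimmed-mean scaling (crosses). Grey lines run from the lowest to the highest member, and the vertical lines mark the median of all genes tested on the 2 scales (0.12 and -0.02). Skeletal muscle, mesothelium, smooth muscle and pericytes, progenitors and endothelium have the highest medians, and the mitochondrial genome the lowest.

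Genes that respond to glucocorticoids in many tissues did not pass the threshold. Of 27 such genes 0 were called by limma, and 9 were higher and 4 lower at an unadjusted p below 0.05. The shares over all genes were 14.3% and 1.54%. The median of the 27 was 0.16 (0.01 under trimmed-mean scaling). Fkbp5, a chaperone partner of the receptor, had 15.3, 15.8 and 17.3 TPM in weekly, 13.5, 14.2 and 14.2 TPM in daily and 11.4, 12.3 and 11 TPM in vehicle libraries (log2 fold change 0.19 ± 0.09, adjusted p = 0.314). The order was weekly, daily, vehicle with no overlap, although the steps were small. Mt2, a metallothionein, had 396, 492 and 479 TPM in weekly, 619, 834 and 589 TPM in daily and 390.2, 525 and 462 TPM in vehicle libraries (log2 fold change -0.57 ± 0.15, adjusted p = 0.17). Here the daily libraries were the high ones and weekly overlapped with vehicle. Per1, a clock gene, lay at 0.40 ± 0.15 and Zbtb16, a transcription factor, at 0.51 ± 0.21 (adjusted p = 0.265 and 0.292). Nr3c1, the receptor itself, had 41.1, 34.1 and 37.4 TPM in weekly, 33.7, 28.3 and 33.4 TPM in daily and 29.1, 35.5 and 33.6 TPM in vehicle libraries (log2 fold change 0.23 ± 0.11, adjusted p = 0.319).

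Hsd11b1, whose enzyme turns inactive glucocorticoid into the active form inside cells and also activates prednisone (chromosome 1, 193221634 to 193264075), had 67.6, 56.2 and 60.0 TPM in weekly, 78.4, 85.4 and 83.5 TPM in daily and 90.2, 103 and 96.3 TPM in vehicle libraries. The 3 groups did not overlap, with weekly lowest and vehicle highest. The log2 fold change, weekly minus daily, was -0.42 ± 0.08 (adjusted p = 0.0739, limma), which missed the threshold on the deposited scale and passed it under trimmed-mean scaling (-0.58, adjusted p = 0.0394). Adipocyte identity genes showed no call among 22 tested (1 at an unadjusted p below 0.05, median 0.02), and Adipoq itself had 3757, 3141 and 2989 TPM in weekly, 2877, 3165 and 2968 TPM in daily and 3033, 3328 and 3181 TPM in vehicle libraries. Its log2 fold change was 0.13 ± 0.09 (adjusted p = 0.463), and weekly and daily overlapped. Lep, the gene of leptin, lay at 0.20 ± 0.08 and Slc2a4, the insulin-responsive glucose transporter, at 0.11 ± 0.06 (adjusted p = 0.299 and 0.422). Over the panel of 26 genes 0 were called by limma. At an unadjusted p below 0.05, 6 were higher and 5 lower, against 14.3% and 1.54% of all genes.

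The other genes with the smallest p among those lower after weekly, given as values without a call, included Plin5, a coat protein of lipid droplets, with 45.5, 42.1 and 47.5 TPM in weekly, 61.8, 73.7 and 56.8 TPM in daily and 63.1, 51.8 and 54 TPM in vehicle libraries (log2 fold change -0.49 ± 0.11, adjusted p = 0.11). Tmem120a, a membrane protein of fat cells, had 302, 289 and 306 TPM in weekly, 364, 369 and 355 TPM in daily and 366, 371 and 374 TPM in vehicle libraries (-0.28 ± 0.05, adjusted p = 0.0561). S100a9, an alarmin of neutrophils, had 4.3, 2.15 and 3.45 TPM in weekly, 6.5, 21.9 and 11.4 TPM in daily and 9.4, 5.82 and 8.44 TPM in vehicle libraries (-1.61 ± 0.36, adjusted p = 0.114). This set was drawn only from genes with every weekly library below every daily one, so that separation was fixed by the choice. Tmem56, Gstt1, Dusp9, Vnn3, Efcab8, Rps4l, Jmjd7 and Rasd1 completed this set, from -0.68 for Tmem56 to -0.32 for Gstt1, with adjusted p = 0.109 to 0.179.

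Vehicle libraries place the called genes. Of the 42 called higher after weekly than after daily prednisone, 41 were also called higher against vehicle in the same fit, the exception being Scg3 (weekly minus vehicle 0.42 ± 0.15, adjusted p = 0.098). In all 42 every weekly library lay above every vehicle library. The 42 were picked by their high weekly values, so this follows in part from the choice. Of all genes 70.3% lay above 0, weekly minus vehicle, and the share without overlap was not computed. Against vehicle 1052 genes (7.43%) were called after weekly prednisone. Of these 809 (5.72%) were higher and 243 (1.72%) lower, while daily prednisone gave 1 call (0.00707%), Thbs1, at 0.67 ± 0.07 (adjusted p = 0.0498) and 1305 genes at an unadjusted p below 0.05. The comparisons share libraries, so they are not independent. The daily mean lay above the vehicle mean in 28 of the 42 and below in 14, and daily and vehicle libraries overlapped in 22. Of all genes 51.7% lay above 0, daily minus vehicle, and the share with overlap was not computed. Cadm3, an adhesion molecule, illustrates the larger class, with 21.4, 16.8 and 17.8 TPM in weekly, 12, 9.29 and 11.2 TPM in daily and 8, 8.68 and 8.64 TPM in vehicle libraries. Scg3, a secretory granule protein, illustrates the smaller, with 3.63, 3.52 and 2.78 TPM in weekly, 1.25, 1.37 and 1.27 TPM in daily and 2.43, 2.41 and 1.8 TPM in vehicle libraries. Both were chosen after their values were seen.

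Quadriceps muscle of the same mice was compared next. In muscle 217 of 12246 genes (1.77%) differed between the regimens, 112 higher (0.915%) and 105 lower (0.857%) after weekly. Of the 44 genes called in adipose tissue 38 were tested in muscle and 0 were called there by limma, with 8 higher and 2 lower at an unadjusted p below 0.05, against 11.2% higher and 6.23% lower of all genes in muscle. The difference between the tissues was tested on each mouse's adipose minus muscle value over 11737 genes, which called 93 (0.792%), 85 with a more positive difference in adipose tissue (0.724%) and 8 with a more negative one (0.0682%). Of the 38 genes 11 were called in that test, and for the others a difference between tissues was not shown. The 38 were picked by their adipose values, which also enter the tissue test. A raised share of calls among them therefore follows in part from the choice. Thbs1 averaged 2.56 ± 0.284 TPM in weekly and 3.22 ± 0.77 TPM in daily muscle (SD, n = 3 each), a log2 fold change there of -0.23 ± 0.14, and the adipose minus muscle difference was 1.10 ± 0.13 (adjusted p = 0.0116, limma). Fn1 averaged 33.7 ± 1.5 TPM in weekly and 46.1 ± 12.6 TPM in daily muscle (-0.41 ± 0.19), with a tissue difference of 1.29 ± 0.20 (adjusted p = 0.0256). Cd44 averaged 1.66 ± 0.146 TPM in weekly and 4.31 ± 1.3 TPM in daily muscle (-0.97 ± 0.22), with a tissue difference of 1.53 ± 0.22 (adjusted p = 0.0231). Thbs1, Fn1 and Cd44 thus lay higher after weekly in fat and, without a call, lower after weekly in muscle. Other called matrix genes did not share this. In muscle Itga11 lay at 0.39 ± 0.10, Ctgf at 0.28 ± 0.19, Dcn at 0.17 ± 0.08, Cyr61 at 0.13 ± 0.22 and Thbs3 at -0.03 ± 0.10. Of the 37 genes called higher in fat and tested in muscle, 24 lay above 0 there, against 58.2% of all genes in muscle. The tissue count was 35 under trimmed-mean scaling and 0 without the third library of every group (1002 at an unadjusted p below 0.05). With single mice left out it was 14, 39 and 7 without weekly 1, 2 and 3, and 25, 60 and 16 without daily 1, 2 and 3. Without vehicle 1, 2 and 3 it was 70, 69 and 35.

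**Figure D5:**
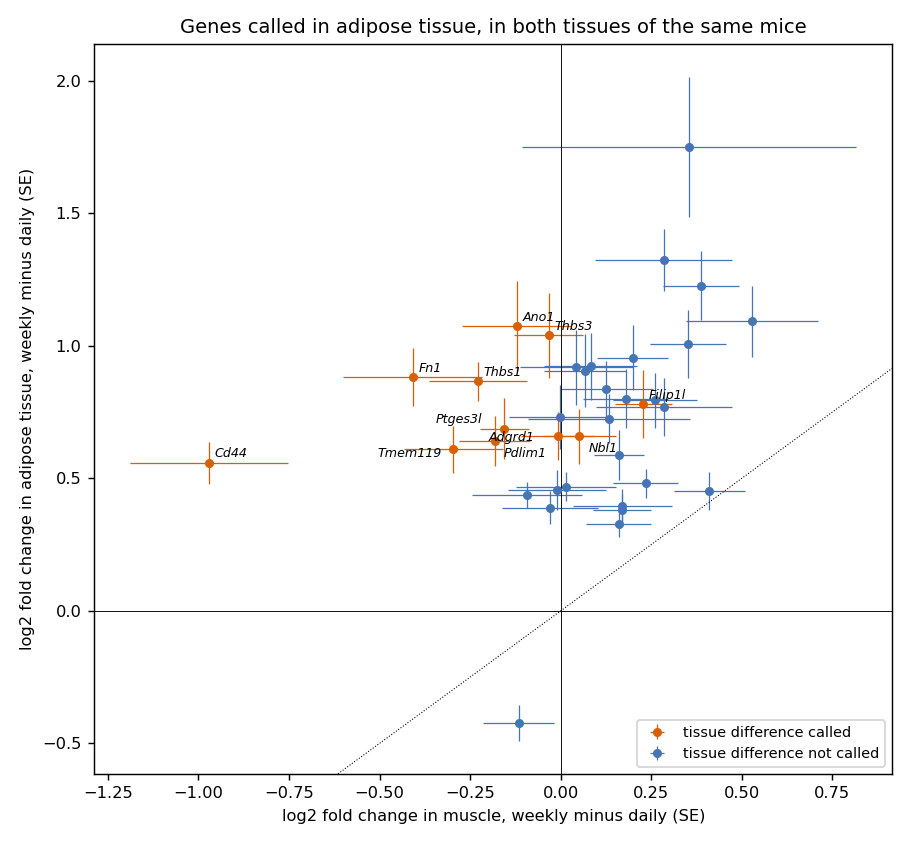
Log2 fold change, weekly minus daily, in muscle (horizontal axis) and adipose tissue (vertical axis) of the genes called in adipose tissue and tested in both, with SE as bars and equal values on the dotted line. Labelled orange genes are called in the test of the tissue difference. Cd44, Fn1 and Thbs1 lie left of 0 in muscle and above 0 in adipose tissue.

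The remaining called genes, all chosen after their values were seen, were higher after weekly prednisone with no overlap between weekly and daily libraries. Pdlim1 and Sorbs3 encode proteins that link actin to adhesions, and they lay at 0.64 ± 0.09 and 0.45 ± 0.07 (adjusted p = 0.0307 and 0.0375, limma). Heg1, a receptor of endothelial junctions, had 56.4, 48.9 and 53.8 TPM in weekly, 31.7, 27.7 and 31.1 TPM in daily and 24.8, 32.1 and 28.6 TPM in vehicle libraries, a log2 fold change of 0.79 ± 0.10 (adjusted p = 0.018). Dcn, the gene of decorin, which binds collagen fibrils, had 923, 833 and 882 TPM in weekly, 677, 655 and 692 TPM in daily and 694, 758 and 729 TPM in vehicle libraries, a log2 fold change of 0.38 ± 0.06 (adjusted p = 0.0375). Gfpt2, an enzyme of hexosamine synthesis, lay at 0.80 ± 0.11 and Ksr1, a scaffold of the Ras to MAP kinase pathway, at 0.59 ± 0.09. The receptors Adgrd1 and Mrgprg lay at 0.66 ± 0.09 and 1.43 ± 0.19. Mrgprg had 2.66, 4.06 and 3.92 TPM in weekly, 0.84, 0.43 and 0.78 TPM in daily and 0.45, 0.51 and 0.37 TPM in vehicle libraries. It passed the filter of 1 TPM in 3 libraries only through the weekly group. Its direction therefore follows from the filter, although it counts among the 42 called higher. Nbl1, an antagonist of bone morphogenetic proteins, lay at 0.66 ± 0.10, Tmem119, a membrane protein, at 0.61 ± 0.09, and Ptges3l at 0.69 ± 0.11. Rnase4, a secreted ribonuclease whose gene shares first exons with Ang, had 216, 203 and 203 TPM in weekly, 151, 152 and 147 TPM in daily and 134, 135 and 128 TPM in vehicle libraries (0.47 ± 0.05, adjusted p = 0.0161), and reads of the shared exons could be split between them. A further 2 called genes, an immunoglobulin segment and a predicted gene, are counted but not named. The immunoglobulin segment averaged 5.84 TPM in weekly, 0.182 TPM in daily and 0.362 TPM in vehicle libraries.

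Skeletal muscle transcripts lay higher after weekly prednisone without a call. Of 19 muscle genes tested in fat 0 were called by limma and 1 had an unadjusted p below 0.05, with a median log2 fold change of 1.12 and overlapping libraries in all 19. Their sum was 362, 2204 and 1630 TPM in weekly, 336, 1413 and 363 TPM in daily, and 472, 320 and 359 TPM in vehicle libraries. With the mean of this list as a covariate 1800 genes were called, 1695 higher and 105 lower, among them all 44. With weekly 2, weekly 3 and daily 2 left out, 2 genes were called, Slpi and a predicted gene, both lower and neither among the 44. The adjusted p of the 42 named called genes was 0.0538 to 0.17 in that fit, where 28 of them had a larger absolute log2 fold change than with all libraries (Thbs1 0.91, Tppp3 1.46 and Lyve1 1.14), with the lone weekly library assumed to vary like the other groups.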

How the data were processed

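RNA of white adipose tissue and quadriceps muscle from 9 mice was sequenced from stranded mRNA libraries, per the labels' protocols. The authors deposited 1 table of TPM (relative abundance corrected for transcript length, with an equal total in every library) for 105129 transcripts, and the submitters' processing notes name Trimmomatic, HISAT2, kallisto and mm10 without versions or roles. Every column matched a labelled sample. TPM keeps no read depth, so no count test was run. TPM were summed per gene symbol to 33641 genes, of which 41 share all values with another gene, and genes at 1 TPM or more in at least 3 adipose libraries were kept. log2(TPM + 1) entered linear models in limma (version 3.58.1, R version 4.3.3; trended prior, all 9 adipose libraries, no block), and fold changes are weekly minus daily on that scale, which understates changes of low genes. A call is a Benjamini-Hochberg adjusted p below 0.05 over all genes tested, and limma gave every adjusted p in the text; errors of fold changes are SE. The tissue difference was fitted the same way to each mouse's adipose minus muscle value.

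Genes were named by rule: the 15 called genes in each direction with the largest change among those averaging 5 TPM or more, filled up with uncalled genes of smallest p, the panel, list members of smallest p, called genes of largest tissue difference, and the muscle markers of highest level. The called genes of largest change and the uncalled genes that filled them up also had to show no overlap of weekly and daily libraries. Other names were chosen after their values were seen. The gene lists, the alternatives and the genes followed were chosen with earlier results of these data known. Lists are described by counts and medians. Replicates follow the labels' numbering, and the protocol takes both tissues from each mouse; since no label states that the numbered samples are separate animals, p-values measure the spread between these samples. Adipose and muscle values were paired by group and number. Replicate numbers did not pair mice across groups: over 9 pairs the median correlation of same-numbered deviations was 0.0295 (-0.0632 to 0.192), with 1 above 0.1. Gene positions are from GENCODE M21 (GRCm38), whose IDs and versions match 99505 of the transcripts. The code was tested on simulated data. Alternatives covered scaling (trimmed mean of M values, trims of 30% and 5%; quantile), pseudocount, filter, block, weights, prior, covariate and libraries left out. Plots used matplotlib 3.10.9 under Python 3.11.15.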

Additional observations from a re-analysis of the deposited data

Results flagged for a closer look

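The genes given here were singled out because the weekly minus daily difference itself differed between adipose tissue and muscle, by limma on each mouse's adipose minus muscle value (adjusted p below 0.05 over 11737 genes). All values are log2 differences, adipose minus muscle, and a positive one means that the weekly minus daily difference was more positive in fat.

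Among genes called in adipose tissue, the difference was 1.10 for Thbs1, 1.29 for Fn1, 1.07 for Thbs3, 1.53 for Cd44, 1.19 for Ano1, 0.82 for Pdlim1, 0.91 for Tmem119, 0.84 for Ptges3l, 0.67 for Adgrd1, 0.61 for Nbl1 and 0.55 for Filip1l. In muscle none of these 11 genes was called between the regimens, and Filip1l (0.23 ± 0.08) and Nbl1 (0.05 ± 0.10) were the ones above 0 there. The 11 come from genes picked by their adipose values, which enter the tissue test, so their calls are not independent of that choice. Of the 11, Thbs1 was the one called also under trimmed-mean scaling of the libraries (adjusted p = 0.0243, limma), and without the third library of every group it was not (adjusted p = 0.299).

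Several genes with a large tissue difference had theirs in muscle rather than in fat. Myl4, an embryonic and atrial myosin light chain, differed by 2.78, with -3.10 ± 0.30 in muscle and -0.32 ± 0.11 in adipose tissue. Actc1, the cardiac actin that is also made in developing muscle, differed by 2.68, with -2.87 ± 0.18 in muscle and -0.19 ± 0.33 in adipose tissue. Postn, the matrix protein periostin, differed by 2.40 (-2.34 ± 0.26 in muscle), Mmp12, a macrophage elastase, by 2.19 (-2.25 ± 0.37 in muscle) and Ctss, a lysosomal protease of macrophages, by 2.14 (-2.08 ± 0.19 in muscle). All 5 were called lower after weekly in muscle and none was called in adipose tissue.

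Acta2, the smooth muscle actin, differed by 1.14 and Itgam, an integrin chain of myeloid cells, by 1.15, and neither was called in a single tissue. A group of metabolic genes went the other way: Plin5 differed by -0.86, Hsd11b1 by -0.78, Ldhb, a lactate dehydrogenase chain, by -0.55, Ech1 by -0.55 and D10Jhu81e by -0.48. Plin5, Ech1 and D10Jhu81e were called higher after weekly in muscle (0.37 ± 0.05, 0.34 ± 0.06 and 0.31 ± 0.05) and none of these 5 was called in adipose tissue. No group here holds 4 samples, so no single sample was tested as an outlier.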

How the results depend on the processing

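The number of genes called between weekly and daily prednisone in adipose tissue was 44, and that of genes called in the tissue difference 93. With trimmed-mean scaling they were 11 and 35, with quantile normalization 19 and 49, with no filter on low values 8 and 48, and with a filter at 5 TPM 72 and 54. Leaving out 1 replicate gave 2 to 47 and 7 to 70, and leaving out the third library of every group gave 0 and 0 (859 and 1002 at an unadjusted p below 0.05, limma). Array weights gave 3941 and 515 in an estimate that did not converge. In adipose tissue alone, fitting only the 6 libraries compared gave 16 calls, the skeletal muscle covariate 1800, leaving out weekly 2, weekly 3 and daily 2 gave 2, adding a log2 fold change of at least 1 gave 9, and transcripts in place of genes gave 3 (Tppp3, Thbs1 and Usf1). The cause of these changes was not tested, apart from the stricter call rule, which lowers the count by construction. The pseudocount (0.1 or 5) and a robust prior kept both counts within 1.5 times. Replicate numbers did not pair the mice, and with a replicate block 12 genes were called in adipose tissue, 11 of them among the 44, and 27 in the tissue difference. Over the named genes and these alternatives 2741 log2 fold changes kept their side of the threshold, 489 lost the call and 168 gained one. The sign changed in 40 values of 20 genes, 0 of them past the threshold, 10 of them with trimmed-mean scaling (among these Adipoq, Slc2a4, Cfd, Pnpla2 and Fasn). Of the 42 named called genes 9 stayed called with trimmed-mean scaling and 16 with quantile normalization, and all 42 kept their sign in every fit. Since their weekly and daily libraries did not overlap, leaving libraries out on the deposited scale could not change a sign. List medians moved by more than the spread between replicates in 51 of 660 values. With 6 residual degrees of freedom and a median SE of 0.13, small changes were not detectable, and TPM hold no depth from which to set a limit for low genes.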

Other observations

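Early-response transcription factors lay on the high side after weekly prednisone without a call. Of 23 tested 0 were called by limma, 12 had an unadjusted p below 0.05, all of them higher, and the median log2 fold change was 0.30, or 0.16 under trimmed-mean scaling. Shares over all genes at that threshold, also for the lists that follow, were 14.3% higher and 1.54% lower. Klf2, a factor of endothelium and lymphocytes, lay at 0.61 ± 0.11 (adjusted p = 0.0536) and Klf4 at 0.51 ± 0.09 (adjusted p = 0.0613). Fosb and Jun, parts of the AP-1 factor, lay at 0.74 ± 0.21 and 0.39 ± 0.11. Of 27 cytokine and chemokine genes 0 were called and 8 were higher at an unadjusted p below 0.05, against 1 lower. Csf1, the growth factor of macrophages, lay at 0.51 ± 0.09 (adjusted p = 0.0531) and Ccl11, the chemokine eotaxin 1 that draws eosinophils, at 0.40 ± 0.07 (adjusted p = 0.0564). Plat, the tissue plasminogen activator, lay at 0.55 ± 0.09 (adjusted p = 0.0531) among 19 matrix remodelling genes, of which 0 were called and 5 were higher at an unadjusted p below 0.05. For each of these genes every weekly library lay above every daily one.

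Lipid synthesis genes lay near the median of all genes. Of 23 genes of cholesterol synthesis 0 were called by limma and 8 were higher at an unadjusted p below 0.05, with a median of 0.17, or 0.03 under trimmed-mean scaling. Insig1, a sterol sensor, lay at 0.36 ± 0.08, with every weekly library above every daily one. Of 21 lipogenic genes 0 were called and 7 were higher at an unadjusted p below 0.05, among them the desaturase Fads2 at 0.58 ± 0.15 (adjusted p = 0.169), and the median was 0.11, against 0.12 over all genes, or -0.04 under trimmed-mean scaling. Of 19 clock genes 0 were called by limma and 17 lay above 0, against 74.3% of all genes. At an unadjusted p below 0.05, 5 were higher and 1 lower, with a list median of 0.17, or 0.04 under trimmed-mean scaling. Per2 lay at 0.61 ± 0.23, Bhlhe40 at 0.36 ± 0.10 and Nr1d1 at -0.34 ± 0.12 (adjusted p = 0.256, 0.185 and 0.256). Among secreted factors of fat, Nrg4 lay at -0.34 ± 0.10 and Angptl8 at -0.38 ± 0.12 (adjusted p = 0.2 and 0.225), and 4 of 14 were lower and 2 higher at an unadjusted p below 0.05.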
